A study of Mus musculus with 57 samples.

Results

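Livers of 4 mice given alpha-naphthyl isothiocyanate (ANIT) were compared directly with livers of 7 mice given 4,4'-methylene dianiline (MDA). These 11 mice are part of a series of 57, and were taken by the treatment in their labels. All were male wild-type C57BL/6JJcl mice, 6 weeks old before 1 week of acclimatisation, fasted for 12 h, dosed by gavage and killed 24 h later. A further 13 mice of the same strain, sex and age, given 0.5% methylcellulose by gavage under the same schedule, were used here to tell which group departed from vehicle. RNA was taken from whole liver tissue of the left lateral lobe after perfusion, and sequenced as mRNA libraries. The labels name methylcellulose, saline and corn oil as vehicles without tying one to ANIT or MDA, and give no amount of compound for either, so a difference of vehicle or amount cannot be told apart from a difference of compound. The ANIT mice are numbered 1 to 4 and the MDA mice 1, 2, 3, 4, 7, 8 and 12, and the ANIT libraries held 17660023 to 23216871 estimated counts against 17494460 to 27594316 for MDA and 15188909 to 28093184 for the controls. Nothing in the labels says whether mice were dosed on 1 day or several, and p-values measure only the spread between these mice.

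ANIT and MDA are both used in rodents as models of bile duct injury. ANIT is joined to glutathione in hepatocytes, is released from the conjugate in bile, and damages the epithelium of the bile ducts, which leads to cholestasis. MDA, an aromatic diamine, also injures the cells that line the bile ducts and can harm hepatocytes. Hepatocytes answer such injury with several programmes that can be read in mRNA: secretion of acute phase proteins, the unfolded protein response of the endoplasmic reticulum, repression of bile acid synthesis, export of bile acids and phospholipid into bile, and detoxification under the nuclear receptors CAR and PXR and the factor NRF2.

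The first library of each group lay closer to the other compound than to its own. The measure of likeness was Pearson's r between pairs of libraries, taken over log2(CPM + 1) of 11811 genes, which are not independent. CPM here is the estimated count brought to a common library total by TMM scaling. The library labelled ANIT 1 had r of 0.925 to 0.928 with ANIT 2 to 4 and of 0.939 to 0.955 with the other 6 MDA libraries. The library labelled MDA 1 had r of 0.928 to 0.954 with ANIT 2 to 4 and of 0.915 to 0.926 with the other 6 MDA libraries. Among themselves, ANIT 2 to 4 had r of 0.939 to 0.961, and the other 6 MDA libraries 0.922 to 0.961. By mean profile, 35 of the 40 treated libraries of the series were nearest to their own compound, and these 2 were among the 5 that were not. The first principal component, with 24.5% of the variance over the 11 libraries, had ANIT 2 to 4 and MDA 1 on the positive side and ANIT 1 and the other MDA libraries on the negative side. The likeness was not complete, since MDA 1 lacked the high endoplasmic reticulum chaperone and Saa1 mRNAs of ANIT 2 to 4, while its Saa3 mRNA was low like theirs. The files cannot tell exchanged labels from mice that responded like the other group, and the labels were kept as given. Counts over gene lists are given below with all 11 mice and without these 2 libraries, and each value of a single gene names its setting. The 2 libraries were set aside after the same values had been seen, so the p-values without them are smaller than an independent choice would give.

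**Figure D1:**
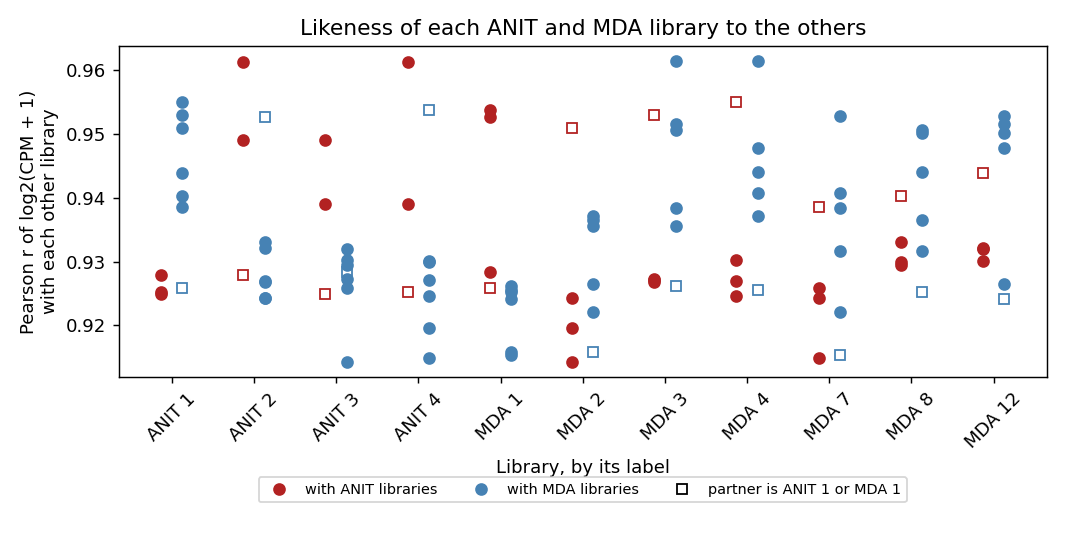
Pearson's r of log2(CPM + 1) across 11811 genes (vertical axis) between the library named on the horizontal axis and each of the other 10 treated libraries, in red where that other library is from ANIT and in blue where it is from MDA, with open squares where it is ANIT 1 or MDA 1. The library labelled ANIT 1 has higher r with the other 6 MDA libraries (0.939 to 0.955) than with ANIT 2 to 4 (0.925 to 0.928), and the library labelled MDA 1 has r of 0.928 to 0.954 with ANIT 2 to 4.

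Over all 11 mice no gene of 13360 tested was called between ANIT and MDA (0%, edgeR's quasi-likelihood test, Benjamini-Hochberg adjusted p under 0.05). The smallest adjusted p was 0.403, and 1253 genes (9.38%) had an unadjusted p under 0.05. limma called 0 genes, with 1256 (9.40%) at an unadjusted p under 0.05, and DESeq2 called 78 (0.584%). Of these 78, 6 had an absolute log2 difference above 10. In 118 genes (0.883%) the 4 ANIT mice did not overlap the 7 MDA mice, with ANIT above in 57 (0.427%) and MDA above in 61 (0.457%). The mice numbered 1 to 4 of both groups gave 0 calls of 12494 genes by edgeR and 701 (5.61%) at an unadjusted p under 0.05, and DESeq2 called 26 there and limma 2. A fit that also held the 13 controls, and so estimated the spread from 24 mice, called 24 of 14708 genes (0.163%) between ANIT and MDA over all 11 mice, 22 higher in ANIT (0.150%) and 2 lower (0.0136%). With the mice numbered 1 to 4 that fit called 0. Leaving out ANIT 1 alone gave 54 calls by edgeR, leaving out ANIT 3 gave 2 and MDA 12 gave 1, and each other mouse gave 0. Without the libraries labelled ANIT 1 and MDA 1, 627 of 13657 genes were called (4.59%), 338 higher in ANIT (2.47%) and 289 lower (2.12%). All ANIT mice are numbered 1 to 4, and with the range of numbers as a covariate 321 genes were called. DESeq2 called 1412, and a replicate block left 12. When libraries were scaled by their totals alone, the median log2 difference over all genes went from -0.04 to -0.19 without the 2 libraries (-0.03 to -0.20 over all 11 mice) and 324 genes were called, 124 higher and 200 lower. Leaving out a further mouse gave 132 (ANIT 2), 210 (ANIT 4), 364 (MDA 3), 381 (MDA 4) or 373 (MDA 12) calls, and 502 to 874 for each other mouse. The mice numbered 2 to 4 alone gave 245 calls of 12710 genes (1.93%), of which 195 were among the 627. Of 93 genes examined singly and called in this way, 43 kept the call whichever further mouse was left out, while 47 lost it without ANIT 2, 17 without ANIT 3 and 38 without ANIT 4. Below, "called without the 2 libraries" refers to the fit of 3 ANIT against 6 MDA mice.

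The endoplasmic reticulum chaperones and folding factors stood higher in ANIT 2 to 4 than in any MDA mouse, taken as a group. Over all 11 mice 0 of 14 were called, 10 of 14 had an unadjusted p under 0.05 (9.38% of all genes tested), and their median log2 difference, ANIT minus MDA, was 0.88 against -0.03 over all genes. The fit without the 2 libraries called 8 of 14 higher in ANIT (2.47% of all genes were) and 0 lower, with a median of 1.11 against -0.04 over all genes. Against controls, with all mice kept, 12 of the 14 rose in ANIT (14.0% of all genes tested rose) and 3 of 14 rose in MDA (17.4% of all genes), the 2 comparisons sharing the same control mice. As the median log2 difference of the 14 genes from the control mean, ANIT 2, 3 and 4 stood at 1.31, 1.78 and 1.06, ANIT 1 at 0.31, MDA 1 at 0.20 and the other MDA mice between -0.05 and 0.46. Controls ranged from -0.41 to 0.55 on this scale, so ANIT 1 and all MDA mice lay within them.

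Derl3, which helps draw misfolded proteins out of the endoplasmic reticulum for degradation, stood at 12.2, 71.8, 62.6 and 20.5 CPM in ANIT 1 to 4. MDA mice ranged from 2.69 to 8.84 CPM (median 6.14) and controls from 1.08 to 8.35 (median 2.19). All 4 ANIT mice, the library labelled ANIT 1 included, were above every MDA mouse. The log2 difference was 2.82 ± 0.47 (SE, adjusted p 0.40), and 3.00 ± 0.39 (adjusted p 0.0040) without the 2 libraries. In the fit with controls Derl3 was called over all 11 mice at an adjusted p of 0.044. Against controls it rose in ANIT by a log2 difference of 3.54 (adjusted p 6.7e-05), while MDA differed by 0.72 (adjusted p 0.17). Creld2, a secreted factor that aids folding, had 36.2, 251, 347 and 166 CPM in ANIT 1 to 4, against 40.0 to 64.5 in MDA (median 49.2) and 29.2 to 90.9 in controls (median 54.0). ANIT 2 to 4 were above every MDA mouse and every control, and ANIT 1 was below every MDA mouse. Its log2 difference was 1.95 ± 0.41 (adjusted p 0.40), called in the fit with controls (adjusted p 0.044), and 2.35 ± 0.22 (adjusted p 0.0013) without the 2 libraries.

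Hspa5, the main chaperone of the endoplasmic reticulum (BiP), had 369, 793, 1352 and 694 CPM in ANIT 1 to 4. MDA mice ranged from 294 to 485 (median 392) and controls from 164 to 434 (median 291). ANIT 2 to 4 lay above all MDA mice and ANIT 1 lay among them. The log2 difference, ANIT minus MDA, was 1.10 ± 0.28 over all mice (adjusted p 0.43) and 1.29 ± 0.23 without the 2 libraries (adjusted p 0.015). Xbp1, the transcription factor at the head of this response, had 172, 373, 398 and 298 CPM in ANIT 1 to 4 against 133 to 209 in MDA (median 159) and 106 to 140 in controls (median 120). It rose against controls in both groups, by 1.34 in ANIT (adjusted p 3.4e-06) and 0.45 in MDA (adjusted p 0.00041), and was called between them in the fit with controls (0.90 ± 0.16, adjusted p 0.019). Herpud1 (1.88), Hyou1 (1.60), Dnajb9 (1.49), Sdf2l1 (1.34) and Pdia4 (1.05) were the other 5 called without the 2 libraries, given as log2 differences. With all 11 mice these stood at 1.45, 1.28, 1.24, 1.15 and 0.85 and were not called. Sdf2l1 lost its call without ANIT 2 as well, and Pdia4 without ANIT 2 or ANIT 3. Hsp90b1, Dnajc3, Pdia6, Calr, Manf and Edem1 were not called.

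Promoters of 4 genes of this response are shown because they carry the endoplasmic reticulum stress element (ERSE), a site known to bind ATF6 and NF-Y and to serve stress-induced chaperones. The element was searched as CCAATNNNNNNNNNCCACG on both strands of the 250 bases before each gene's start, in RefSeq promoters of GRCm38.p6, an older build than that of the counts. Derl3 (chr10:75893148-75893397, plus strand), Creld2 (chr15:88819396-88819645, plus strand) and Hspa5 (chr2:34771840-34772089, plus strand) had 1 match each and Hsp90b1 (chr10:86705445-86705694, minus strand) had 2. The matches are in capitals, and a match on the other strand reads as the reverse complement.
Derl3: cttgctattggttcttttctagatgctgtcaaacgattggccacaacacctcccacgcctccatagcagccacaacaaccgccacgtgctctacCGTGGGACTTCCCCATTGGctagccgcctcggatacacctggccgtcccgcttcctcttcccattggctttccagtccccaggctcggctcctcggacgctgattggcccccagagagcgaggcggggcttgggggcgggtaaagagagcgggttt
Creld2: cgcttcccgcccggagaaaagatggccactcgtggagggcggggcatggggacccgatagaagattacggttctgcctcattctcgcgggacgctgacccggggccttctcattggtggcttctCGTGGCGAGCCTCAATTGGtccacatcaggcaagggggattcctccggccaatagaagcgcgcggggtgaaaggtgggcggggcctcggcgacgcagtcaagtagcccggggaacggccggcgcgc
Hspa5: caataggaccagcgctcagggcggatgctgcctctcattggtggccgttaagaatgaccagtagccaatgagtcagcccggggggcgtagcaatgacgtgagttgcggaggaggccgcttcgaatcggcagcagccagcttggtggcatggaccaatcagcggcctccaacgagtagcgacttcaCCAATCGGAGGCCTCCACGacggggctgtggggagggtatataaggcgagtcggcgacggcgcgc
Hsp90b1: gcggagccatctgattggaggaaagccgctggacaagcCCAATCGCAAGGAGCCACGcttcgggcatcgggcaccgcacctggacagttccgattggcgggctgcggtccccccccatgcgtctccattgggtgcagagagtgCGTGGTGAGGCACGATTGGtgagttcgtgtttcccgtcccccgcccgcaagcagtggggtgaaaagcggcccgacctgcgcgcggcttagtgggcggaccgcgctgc
The letters occurred in 37 of 32851 promoters of this length (0.113%). Of the 14 chaperone genes, 12 had a promoter in the table and 6 of these held the element (Hspa5, Hsp90b1, Dnajc3, Pdia6, Calr and Creld2). Of those 6, Hspa5 and Creld2 were called between the groups without the 2 libraries, and Hsp90b1, Dnajc3, Pdia6 and Calr were not. Hsp90b1, the chaperone GRP94, rose against controls in both groups, by 1.31 in ANIT (adjusted p 0.0013) and 0.84 in MDA (adjusted p 0.011).

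A neighbouring stress arm, the ATF4 response to amino acid shortage and misfolding, rose in both groups. Against controls 14 of 22 genes rose with ANIT (14.0% of all genes) and 12 of 22 with MDA (17.4% of all genes), all mice kept. Between the groups 0 of 23 were called over all 11 mice and 6 had an unadjusted p under 0.05 (9.38% of all genes). Without the 2 libraries 3 of 23 were called higher in ANIT (2.47% of all genes) and 0 lower. Chac1, a glutathione-degrading enzyme, had 4.55, 33.4, 186 and 14.0 CPM in ANIT 1 to 4, against 1.82 to 15.7 in MDA (median 4.63) and 0.334 to 6.30 in controls (median 2.25). ANIT 2 and 3 were above every MDA mouse, and ANIT 4 lay below the highest, MDA 7. The log2 difference was 3.50 ± 0.85 (adjusted p 0.40) and 3.86 ± 0.82 (adjusted p 0.029) without the 2 libraries, a call that was lost without ANIT 2, ANIT 3, MDA 3, MDA 4 or MDA 12 as well. Ddit3, which encodes the stress factor CHOP, rose against controls in both groups and differed between them by 0.60 ± 0.55 (adjusted p 0.74). Among cytosolic heat shock genes, Hspa8, the constitutive HSC70, had 620.0, 1179, 977 and 1123 CPM in ANIT 1 to 4 against 377 to 977 in MDA (median 412), the highest MDA value being MDA 1. It was called higher in ANIT without the 2 libraries (1.30 ± 0.17, adjusted p 0.0040), and differed by 0.90 over all mice (adjusted p 0.46).

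Acute phase mRNAs rose with both compounds, and a subset stood higher after ANIT. Against controls, all mice kept, 22 of 24 rose with ANIT (14.0% of all genes) and 21 of 24 with MDA (17.4% of all genes). Between the groups 0 of 24 were called over all 11 mice. Of the 24, 10 had an unadjusted p under 0.05 (9.38% of all genes), and the median log2 difference was 0.64 against -0.03 over all genes. With the 2 libraries left out, 9 of 24 were called higher in ANIT (2.47% of all genes) and 1 lower (2.12%). Serpina3n, an inhibitor of serine proteases, had 372, 2921, 3432 and 3199.9 CPM in ANIT 1 to 4, against 331 to 1111 in MDA (median 495) and 187 to 449 in controls (median 261). ANIT 2 to 4 were above every MDA mouse, ANIT 1 was within the controls, and the highest MDA mouse was MDA 1. Its log2 difference was 2.02 ± 0.50 (adjusted p 0.40), it was called in the fit with controls (adjusted p 0.026), and it was 2.59 ± 0.30 (adjusted p 0.0031) without the 2 libraries.

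Itih4, an acute phase plasma protein, had 1074, 2343, 3311 and 2270.3 CPM in ANIT 1 to 4, against 703 to 1169 in MDA (median 995) and 877 to 1414 in controls (median 1037). It rose with ANIT against controls (1.07, adjusted p 0.00036) and differed by -0.16 with MDA (adjusted p 0.27). Between the groups it differed by 1.24 ± 0.25 over all mice (adjusted p 0.40), was called in the fit with controls (adjusted p 0.012), and differed by 1.48 ± 0.20 without the 2 libraries (adjusted p 0.0043). Fga, the alpha chain of fibrinogen, had 3567, 8491, 11699.7 and 10649 CPM in ANIT 1 to 4, against 3006 to 4977 in MDA (median 4068) and 1239 to 2172 in controls (median 1800). All treated mice were above every control, and ANIT 2 to 4 were above every MDA mouse. Fga differed by 1.11 ± 0.28 over all mice (adjusted p 0.43), was called in the fit with controls (adjusted p 0.040), and differed by 1.43 ± 0.21 without the 2 libraries (adjusted p 0.0065). The other fibrinogen chains, Fgb and Fgg, were called higher in ANIT without the 2 libraries, at 1.21 and 1.24, though Fgg was not once ANIT 3 or ANIT 4 was also left out. They differed by 0.94 and 0.98 over all mice and were not called. The strongly induced Saa1, a serum amyloid A apolipoprotein, did not separate the groups: it had 724, 5402, 11243 and 7364 CPM in ANIT 1 to 4 and 355 to 8986 in MDA (median 1783), against 68.1 to 2059 in controls (median 200.3). Saa1 differed on the log2 scale by 1.25 ± 0.81 (adjusted p 0.63), and by 1.42 ± 0.70 without the 2 libraries (adjusted p 0.28). Saa3, the form also made by macrophages, was the member called lower in ANIT without the 2 libraries (-2.92 ± 0.51, adjusted p 0.014), and differed by -1.10 over all mice (adjusted p 0.68). It had 171, 10.3, 19.9 and 24.1 CPM in ANIT 1 to 4, 8.13 in MDA 1 and 58.6 to 205 in the other 6 MDA mice. Saa3 was not called once ANIT 2 was also left out.

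The mRNAs of metallothioneins, proteins that bind zinc and copper, rose with both compounds, and stood higher in ANIT 2 to 4. Mt1 had 1217, 8771, 8796 and 4408 CPM in ANIT 1 to 4, 992 to 2571 in MDA (median 1647) and 57.0 to 626 in controls (median 141). Every treated mouse was above every control, ANIT 2 to 4 were above every MDA mouse, and ANIT 1 was among the MDA mice. The log2 difference was 1.78 ± 0.43 (adjusted p 0.40), and 2.16 ± 0.31 (adjusted p 0.0059) without the 2 libraries. Mt2 (1.94, not called once ANIT 2 was also left out) and the zinc importer Slc39a14 (1.85) were also called higher in ANIT without the 2 libraries. They differed by 1.56 and 1.22 over all mice and were not called. Of the metallothionein and zinc list, 3 of 7 were called higher in ANIT without the 2 libraries (2.47% of all genes) and 1 of 7 lower (2.12%), with a median log2 difference of 0.15. Over all mice 0 of 6 were called, with a median of 0.65. Litaf, an endosomal membrane protein first described as inducible by lipopolysaccharide, was among the 57 genes with every ANIT mouse above every MDA mouse. It had 161, 287, 410 and 241 CPM in ANIT 1 to 4 against 98.1 to 141 in MDA (median 125) and 64.8 to 116 in controls (median 78.6). Its log2 difference of 1.18 ± 0.21 had an adjusted p of 0.40, and of 0.012 in the fit with controls, and it was 1.38 ± 0.17 without the 2 libraries (adjusted p 0.0040). Yars, the tyrosyl-tRNA synthetase, Ten1 and St3gal3 were likewise non-overlapping and called in the fit with controls. In the fit without the 2 libraries Yars lost its call when ANIT 2 was also left out, Ten1 when ANIT 3 or ANIT 4 was, and St3gal3 in 8 of 9 such fits, all but that without MDA 2. Serpina10, the inhibitor of activated factor X, Dnajc12, a co-chaperone of aromatic amino acid hydroxylases, Gjb2, a gap junction protein, and Ldha, lactate dehydrogenase, were called in the fit with controls, with ANIT 1 among or near the MDA mice.

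**Figure D2:**
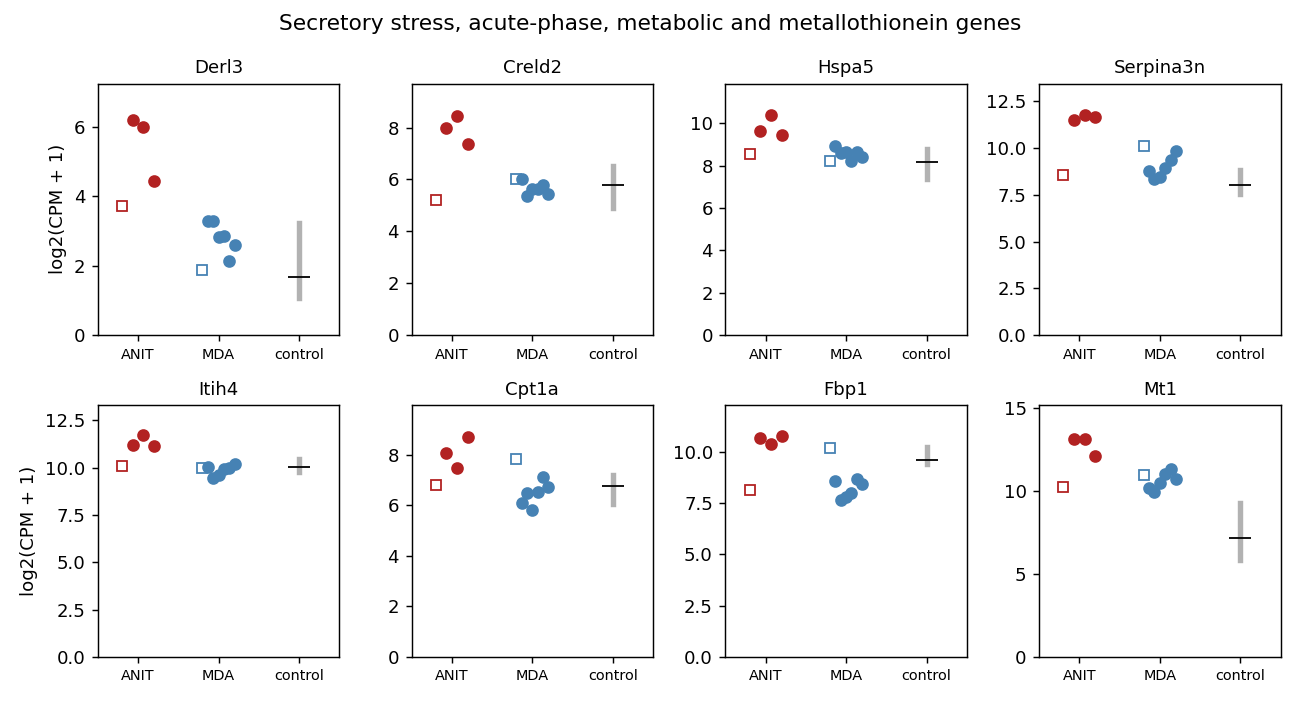
Each panel gives log2(CPM + 1) of 1 stress, acute phase, metabolic or metallothionein gene in each ANIT mouse (red) and MDA mouse (blue), with open squares for the libraries labelled ANIT 1 and MDA 1, and a grey bar for the range of the 13 controls with a line at their median. Derl3 has all 4 ANIT mice (12.2 to 71.8 CPM) above all 7 MDA mice (2.69 to 8.84 CPM), while in Creld2 ANIT 2 to 4 (166 to 347 CPM) are above them and ANIT 1 is below.

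Fatty acid oxidation genes under the nuclear receptor PPAR alpha stood higher after ANIT than after MDA, in mice other than the 2 libraries. Over all 11 mice 0 of 25 were called, and 8 of 25 had an unadjusted p under 0.05 (9.38% of all genes). The median log2 difference was 0.69 against -0.03 over all genes. Leaving out the 2 libraries, 13 of 25 were called higher in ANIT (2.47% of all genes) and 0 lower, with a median of 0.98. Against controls with all mice kept, 14 of 25 rose and 2 fell with ANIT (14.0% and 14.2% of all genes), and 4 rose and 6 fell with MDA (17.4% and 16.4% of all genes). In the mice that remain without the 2 libraries, 18 rose and 2 fell with ANIT (13.5% and 13.9% of all genes), and 4 rose and 11 fell with MDA (17.8% and 17.0% of all genes).

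Cpt1a, which admits long-chain fatty acids to mitochondria, had 111, 268, 176 and 416 CPM in ANIT 1 to 4, 228 in MDA 1 and 54.9 to 140.1 in the other 6 MDA mice, against 64.8 to 147 in controls (median 108). ANIT 2 to 4 and MDA 1 were above all controls, and ANIT 1 lay among the controls. The difference on the log2 scale was 1.13 ± 0.40 (adjusted p 0.48), and 1.66 ± 0.31 (adjusted p 0.017) without the 2 libraries. The omega-hydroxylases Cyp4a10, Cyp4a14, Cyp4a31 and Cyp4a32 were called there too, at 1.85, 1.45, 2.58 and 2.92, and differed by 1.10, 0.86, 1.47 and 1.54 over all mice without a call. Cpt1a, Cyp4a10 and Cyp4a14 lost their calls when ANIT 2 or ANIT 4 was also left out. The Cyp4a genes are close copies, so how reads were divided among them is uncertain. Ppara, which encodes the receptor, was not called. Fbp1, fructose bisphosphatase of gluconeogenesis, followed the same order, with 275, 1615, 1320.2 and 1710.2 CPM in ANIT 1 to 4, 202 to 1156 in MDA (median 338, MDA 1 highest) and 672 to 1208 in controls (median 774). Fbp1 differed by 1.54 ± 0.53 on the log2 scale (adjusted p 0.48), and by 2.37 ± 0.24 (adjusted p 0.0015) without the 2 libraries.

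Of 12 genes of bile acid synthesis, 6 fell and 1 rose against controls with ANIT (14.2% and 14.0% of all genes), and 6 fell and 1 rose with MDA (16.4% and 17.4%), all mice kept. Between the groups the median log2 difference of the 12 was -0.04 over all 11 mice, against -0.03 over all genes. Of the 12, 0 were called and 1 had an unadjusted p under 0.05 (9.38% of all genes). In the fit of 9 mice 3 of 12 were called higher in ANIT (2.47% of all genes) and 0 lower. They were Cyp7a1, Cyp8b1 and Slc27a5, the last not once ANIT 2 or ANIT 4 was also left out. Cyp7a1, the rate-limiting enzyme of bile acid synthesis, had 0, 12.7, 9.34 and 43.1 CPM in ANIT 1 to 4. In MDA 1 it stood at 63.2 CPM and in the other 6 MDA mice between 0 and 0.102, against 13.2 to 511 in controls (median 77.0). The 6 mice together held 7.60 estimated counts and ANIT 1 held 0, so the fitted log2 difference of 8.66 ± 0.69 (adjusted p 0.0011) without the 2 libraries rests on very few counts on the MDA side. Over all 11 mice the difference was 0.87 ± 1.88 (adjusted p 0.90), and with all mice kept Cyp7a1 fell against controls in both groups (adjusted p 0.046 for ANIT and 0.029 for MDA). Without ANIT 1 the fall with ANIT was not called (-2.54, adjusted p 0.065).

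Cyp8b1, the sterol 12-alpha-hydroxylase that sets the share of cholic acid, had 2.85, 272, 65.1 and 450.2 CPM in ANIT 1 to 4. MDA 1 had 452 and the other 6 MDA mice 2.60 to 8.74, against 126 to 401 in controls (median 233). The same pair of libraries thus stood on the other group's side. The log2 difference was 1.52 ± 1.52 over all mice (adjusted p 0.76) and 5.67 ± 0.53 (adjusted p 0.0013) without the 2 libraries. Slc27a5, which activates bile acids for conjugation, had 528, 736, 568 and 702 CPM in ANIT 1 to 4 against 311 to 636 in MDA (median 368, MDA 1 highest) and 364 to 968 in controls (median 645). Nr0b2, the repressor SHP that bile acids induce through the receptor FXR, rose against controls in both groups, by 1.18 with ANIT (adjusted p 0.018) and 1.09 with MDA (adjusted p 0.0014). It differed between them by 0.09 ± 0.47, an estimate that changed sign with the scaling by library total (-0.06).

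Of the canalicular exporters, 3 were lower in ANIT without the 2 libraries. Over all mice 0 of 8 were called and the median log2 difference was -0.41. Leaving them out, 0 were called higher in ANIT and 3 lower (2.12% of all genes), Abcb4, Abcg5 and Abcg8. Abcb4 was not called once ANIT 2 was also left out, and Abcg8 not without any 1 of ANIT 2 to 4, MDA 3 or MDA 12. Abcb4, which moves phosphatidylcholine into bile, had 166, 68.2, 76.6 and 73.6 CPM in ANIT 1 to 4, 66.3 to 169 in MDA (median 131, MDA 1 lowest) and 45.2 to 61.7 in controls (median 51.3). Every treated mouse was above every control, and Abcb4 rose against controls in both groups (0.87, adjusted p 0.00059, for ANIT and 1.32, adjusted p 6.5e-08, for MDA). Without ANIT 1 the ANIT difference was 0.48 (adjusted p 0.00074). Between the groups it differed by -0.45 ± 0.29 (adjusted p 0.62), and by -0.95 ± 0.15 (adjusted p 0.0094) without the 2 libraries. Abcg5, which forms the cholesterol exporter with Abcg8, had 53.1, 26.9, 25.3 and 23.7 CPM in ANIT 1 to 4 and 39.4 to 58.0 in MDA (median 53.04), against 38.1 to 109 in controls (median 61.4). Abcb11, the bile salt export pump, was not called (-0.44 ± 0.59 over all mice, adjusted p 0.82), with 269, 50.6, 109.8 and 24.8 CPM in ANIT 1 to 4. Of 6 uptake transporters, Slco1a1 alone was called lower in ANIT without the 2 libraries (2.12% of all genes were). Its log2 difference there was -1.94 ± 0.37 (adjusted p 0.019), a call lost when any of ANIT 2 to 4 was also left out, and it was -0.95 over all mice (adjusted p 0.59). It fell against controls in both groups with all mice kept.

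Several, but not all, glutathione transferases and cytochromes P450 that respond to NRF2, CAR and PXR were higher in the MDA mice other than MDA 1, and in the library labelled ANIT 1. Over all mice 0 of 24 NRF2 genes and 0 of 13 CAR and PXR genes were called, with median log2 differences of -0.26 and -0.53. Of the NRF2 genes, 7 of 24 were called lower in ANIT without the 2 libraries (2.12% of all genes were) and 1 higher (Me1). Of the CAR and PXR genes, 6 of 14 were called lower and 2 higher (Cyp2b9 and Cyp3a13), against 2.47% of all genes higher. Against controls 10 of 23 NRF2 genes rose with ANIT (14.0% of all genes) and 16 of 23 with MDA (17.4%), all mice kept. As the median log2 difference of the NRF2 genes from controls, ANIT 2 to 4 stood at -0.18 to 0.07, ANIT 1 at 1.27, MDA 1 at 0.10 and the other MDA mice at 0.72 to 1.20, with controls at -0.18 to 0.21. Me1, Cyp2b9 and Cyp3a13 were not called once ANIT 2 or ANIT 4 was also left out. Gstm3, a mu-class glutathione transferase that stands on both lists, had 2788, 23.9, 75.4 and 12.3 CPM in ANIT 1 to 4. MDA 1 had 33.5 CPM and the other 6 MDA mice 736 to 3229, against 55.7 to 519 in controls (median 106). On the log2 scale the difference was -1.03 ± 1.33 over all mice (adjusted p 0.81) and -5.52 ± 0.79 (adjusted p 0.0057) without the 2 libraries. In those mice Gstm3 fell against controls with ANIT (-2.13, adjusted p 0.039) and rose with MDA (3.37, adjusted p 3.7e-06).

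Gsta1, an alpha-class transferase, had 383, 6.10, 16.4 and 3.68 CPM in ANIT 1 to 4, and 6.26 in MDA 1 against 156 to 431 in the other 6 MDA mice. Gsta4 (-2.88), Gstm2 (-2.28) and Gstm1 (-1.75) were also called lower in ANIT without the 2 libraries, Gsta4 and Gstm1 not once ANIT 2 was also left out. Gstm1 lost its call without ANIT 3 or ANIT 4 too. Over all mice the 3 differed by -1.04, -0.97 and -0.68 and were not called. Transferases of one class are near copies, and reads may have been divided among them. The NRF2 targets Nqo1 and Hmox1 rose with both compounds and were not called between them. Nqo1, a quinone reductase, had 22.8, 17.2, 12.8 and 14.7 CPM in ANIT 1 to 4 and 13.3 to 35.8 in MDA (median 21.1), all above the controls (4.28 to 7.87). Hmox1, heme oxygenase, had 134, 125, 523 and 137 CPM in ANIT 1 to 4 and 90.8 to 167 in MDA (median 118), again all above the controls (21.1 to 49.5).

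Cyp3a11, the main PXR-induced P450 of mouse liver, had 6734, 655, 582 and 691 CPM in ANIT 1 to 4. MDA 1 had 1034 CPM and the other 6 MDA mice 2228 to 5902, against 723 to 1768 in controls (median 1341). ANIT 2 to 4 were thus below every control and the 6 MDA mice and ANIT 1 above every control. Its log2 difference was -0.90 ± 0.72 over all mice (adjusted p 0.70) and -2.80 ± 0.36 (adjusted p 0.0040) without the 2 libraries. Cyp2b10, the marker gene of CAR, rose against controls in both groups with all mice kept (2.12, adjusted p 0.00047, for ANIT and 3.25, adjusted p 1.1e-09, for MDA). Without ANIT 1 the ANIT difference was 0.87 (adjusted p 0.012), with ANIT 3 and 4 inside the range of the controls. It had 359.5, 92.8, 36.6 and 33.1 CPM in ANIT 1 to 4 and 82.5 to 496 in MDA (median 302, MDA 1 lowest), against 17.0 to 37.2 in controls. Cyp2c55 departed on the ANIT side, with 12.7, 0.191, 0.115 and 0.0981 CPM in ANIT 1 to 4, 0.409 in MDA 1, 2.94 to 12.9 in the other 6 MDA mice and 2.45 to 8.52 in controls. Cyp2b9 departed on the MDA side, with 5.71, 47.4, 37.2 and 89.1 CPM in ANIT 1 to 4, 46.4 in MDA 1, 0.399 to 8.50 in the other 6 MDA mice and 15.7 to 130.1 in controls (median 42.1).

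**Figure D3:**
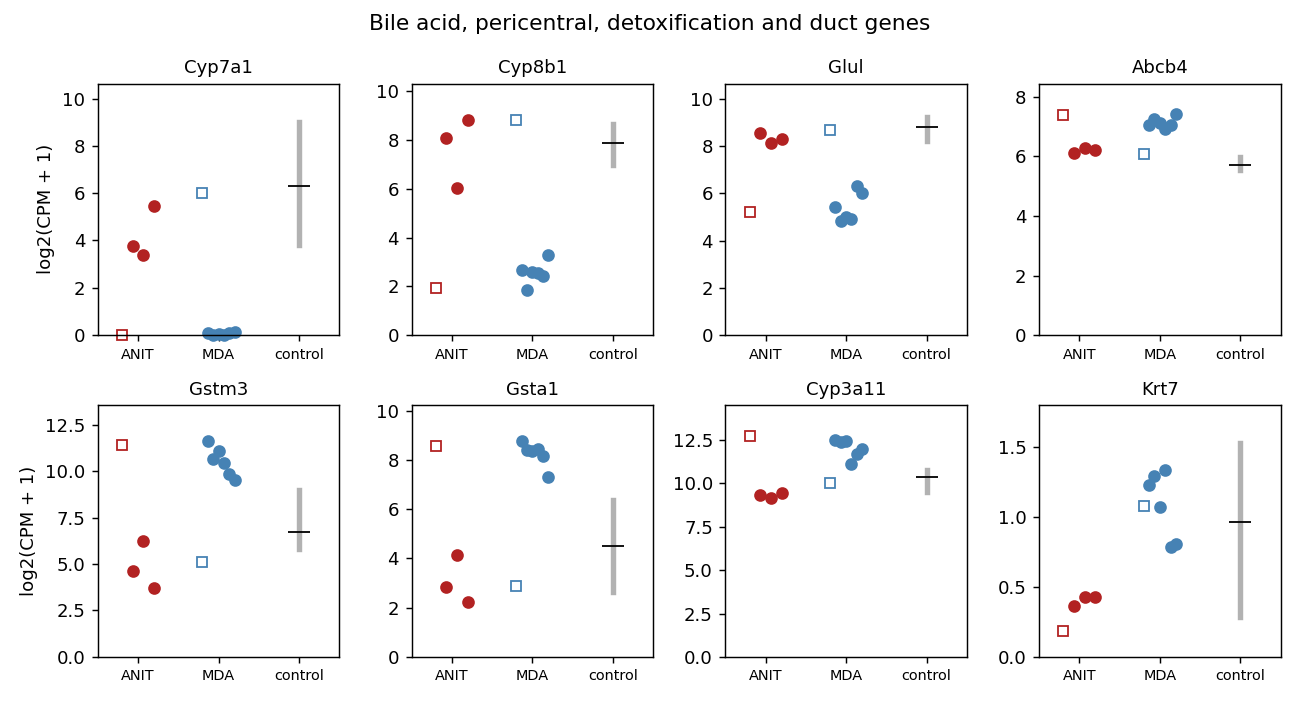
Each panel gives log2(CPM + 1) of 1 bile acid, pericentral, detoxification or bile duct gene in each ANIT mouse (red) and MDA mouse (blue), with open squares for the libraries labelled ANIT 1 and MDA 1, and a grey bar for the range of the 13 controls with a line at their median. In Cyp8b1 and Gstm3 the squares lie with the other group: Cyp8b1 is 2.85 CPM in ANIT 1 and 452 in MDA 1, and Gstm3 is 2788 CPM in ANIT 1 and 33.5 in MDA 1.

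Cholesterol synthesis and uptake genes, which the factor SREBP2 controls, rose against controls in 16 of 20 cases with MDA (17.4% of all genes) and 8 of 20 with ANIT (14.0%), all mice kept. Without the 2 libraries all 20 of 20 rose with MDA (17.8% of all genes), and 2 rose (13.5%) and 1 fell (13.9%) with ANIT. Between the groups the median log2 difference over all 11 mice was -0.79, against -0.03 over all genes. Of the 20, 0 were called and 0 had an unadjusted p under 0.05 (9.38% of all genes). With the 2 libraries left out, 2 of 20 were called lower in ANIT (2.12% of all genes), Mvk (mevalonate kinase, -2.93 ± 0.54, adjusted p 0.017) and Dhcr7 (the last step of cholesterol synthesis, -2.45 ± 0.56, adjusted p 0.038). Over all mice they differed by -1.08 and -1.15. Both calls were lost when ANIT 2 or ANIT 4 was also left out, and that of Dhcr7 also without MDA 3, MDA 4, MDA 7 or MDA 12. The ANIT mice were split in this list. As the median log2 difference of the 20 genes from controls, ANIT 1 and 3 stood at 1.77 and 1.21 and ANIT 2 and 4 at -0.77 and -1.71, while MDA 1 stood at -1.68 and the other MDA mice at 0.76 to 2.15. Controls ranged from -0.76 to 0.69.

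Among genes of the hepatocytes around the central vein, Glul and Cyp2e1 were the 2 of 10 called higher in ANIT without the 2 libraries (2.47% of all genes), Cyp2e1 not once ANIT 2 or ANIT 4 was also left out. Glul, glutamine synthetase, had 36.1, 373, 279 and 311 CPM in ANIT 1 to 4 and 409.5 in MDA 1, against 27.1 to 79.8 in the other 6 MDA mice and 296 to 607 in controls (median 453). Its log2 difference was 1.36 ± 0.79 over all mice (adjusted p 0.59) and 2.82 ± 0.33 (adjusted p 0.0032) without the 2 libraries. With all mice kept, Glul fell against controls with MDA (-2.27, adjusted p 0.00064), and ANIT differed by -0.91 (adjusted p 0.061). Without the 2 libraries it fell with both (-0.55, adjusted p 0.019, for ANIT and -3.37, adjusted p 1.9e-09, for MDA). In whole liver, fewer cells of a type and less RNA per cell cannot be told apart. Of the 10 genes, 4 fell against controls with ANIT (14.2% of all genes) and 8 with MDA (16.4%), all mice kept. Oat, ornithine aminotransferase of the same zone, fell with both (-1.30, adjusted p 0.00022, for ANIT and -1.60, adjusted p 7.0e-06, for MDA) and was not called between them. Of 8 periportal markers 0 were called higher in ANIT and 1 lower without the 2 libraries (2.47% and 2.12% of all genes).

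Bile duct markers were measured at low levels in whole liver. The summed CPM of the cholangiocyte list was 59.8 to 76.8 in ANIT 2 to 4, 83.1 in ANIT 1, 78.5 in MDA 1, 76.9 to 117 in the other MDA mice and 91.5 to 159 in controls. Krt7, a keratin of duct epithelium, had 0.136, 0.286, 0.344 and 0.344 CPM in ANIT 1 to 4, 0.728 to 1.52 in MDA (median 1.11) and 0.221 to 1.89 in controls (median 0.952). Every ANIT mouse was below every MDA mouse, the 2 libraries included. The log2 difference was -2.01 ± 0.38 (adjusted p 0.40, unadjusted p 0.00018), and Krt7 fell against controls with ANIT (-1.61, adjusted p 0.038) and differed by 0.40 with MDA (adjusted p 0.41). Without ANIT 1 the difference of ANIT from controls was not called (-1.40, adjusted p 0.10). Spp1, osteopontin, had 29.0, 10.1, 13.6 and 15.9 CPM in ANIT 1 to 4, 20.6 to 53.2 in MDA (median 38.4) and 16.9 to 87.2 in controls (median 34.4). It was called lower in ANIT without the 2 libraries (-1.60 ± 0.30, adjusted p 0.019), but not when any of ANIT 2 to 4 was also left out, and differed by -1.15 over all mice (adjusted p 0.44). Krt19, the other classical duct keratin, was not called, at -0.19 ± 0.42 over all mice. Of 10 cholangiocyte genes tested without the 2 libraries, 0 were called higher in ANIT and 2 lower (2.12% of all genes), Krt7 and Spp1. Krt7 lost that call when any of ANIT 2 to 4, MDA 3, MDA 4 or MDA 7 was also left out.

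Markers of other cells were set beside these groups, and their part in the results was not tested. The summed CPM of 12 neutrophil genes was 14.3 to 28.9 in ANIT 2 to 4, 47.0 in ANIT 1, 8.95 in MDA 1, 16.4 to 133 in the other MDA mice and 2.95 to 63.9 in controls, and 0 of 7 tested were called. The summed CPM of 8 hepatocyte genes was 58462 to 63370 in ANIT 2 to 4, 103154 in ANIT 1, 59819 in MDA 1 and 53766 to 117476 in the other MDA mice. Alb, albumin, which marks hepatocytes, was measured at 31625 to 75924 CPM in the ANIT mice and 32285 to 80576 in MDA. Of the 8 hepatocyte genes, 3 were called higher in ANIT without the 2 libraries (2.47% of all genes) and 0 lower. In that fit 0 of 11 Kupffer cell, 0 of 10 sinusoidal endothelial and 0 of 11 stellate cell genes were called between the groups by edgeR. Only 2 of 10 T and NK, 1 of 7 B cell and 1 of 6 dendritic cell genes passed the filter on low counts, and 0 were called. These 3 lists were thus hardly measured. Of 9 monocyte genes, 1 was higher in ANIT (2.47% of all genes) and 1 lower (2.12%). Mitochondrial mRNA took 12.3% to 19.9% of counts in ANIT and 9.00% to 24.3% in MDA. Cytoskeletal and annexin genes that mark injured tissue rose against controls in 12 of 22 cases with MDA (17.4% of all genes) and 3 of 22 with ANIT (14.0%), all mice kept. The controls were split in this list: as the median log2 difference from their mean, the 4 numbered 15 to 18 stood at 0.31 to 0.87 and the other 9 at -0.36 to -0.10. MDA mice other than MDA 1 stood at 0.56 to 1.22, ANIT 1 at 0.81, MDA 1 at -0.31 and ANIT 2 to 4 at -0.15 to 0.26. Anxa2 (-2.43), Anxa5 (-1.30) and Tpm1 (-0.97) were the 3 of 22 called lower in ANIT without the 2 libraries (2.12% of all genes), with 0 higher (2.47%), and all 3 calls were lost when ANIT 2 or ANIT 4 was also left out, that of Anxa2 also without ANIT 3 or MDA 3. Over all mice they differed by -1.13, -0.65 and -0.64.

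**Figure D4:**
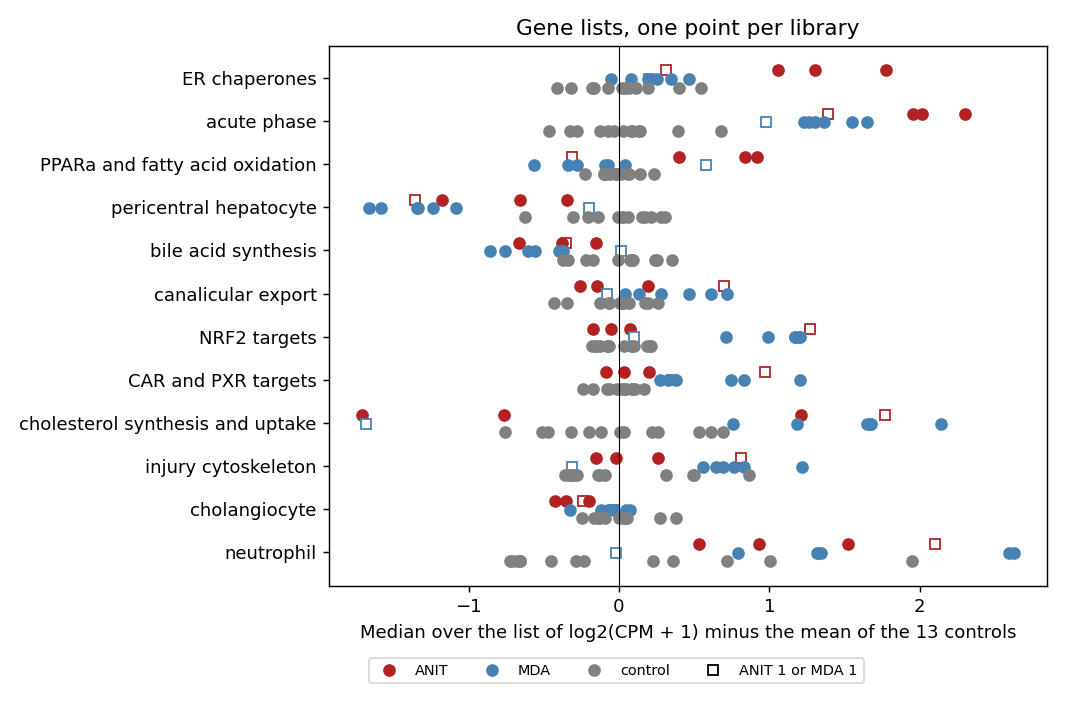
Median over each gene list of log2(CPM + 1) minus the mean of the 13 controls, with 1 point for each ANIT (red), MDA (blue) and control (grey) mouse and open squares for the libraries labelled ANIT 1 and MDA 1. For the endoplasmic reticulum chaperones ANIT 2 to 4 lie at 1.06 to 1.78 and every MDA mouse at 0.46 or below, while for cholesterol genes ANIT 1 (1.77) and ANIT 3 (1.21) lie with the MDA mice other than MDA 1.

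The controls were used to place each of the 627 genes called without the 2 libraries. ANIT alone departed from controls in 144 genes that were higher and 87 that were lower, and MDA alone in 106 higher and 88 lower, 425 in all. Here alone means called against controls in 1 group and not in the other, which does not show that the other was unchanged. The 3 ANIT and 6 MDA mice also differ in the power to reach a call. Of all genes tested against controls, 13.5% were called higher and 13.9% lower with these ANIT mice, and 17.8% and 17.0% with these MDA mice. Both groups were higher than controls in 54 genes, with ANIT the higher in 45. Both were lower in 50 genes, with ANIT the lower in 41. The groups departed in opposite directions in 64 genes, ANIT higher and MDA lower in 36 and the reverse in 28, and 34 were called against controls in neither. Over all 11 mice no gene could be placed by edgeR's fit of the 2 groups, which called none, while DESeq2 placed 51 as departing in 1 group alone. By the rule for named genes, those of opposite direction with ANIT lower were Gstm3, Cyp3a44, Mvk, Gsta4, Camk2n2, Mrgpre, Cyp3a11, Cyp3a59, Adamts7 and Rdh11. Of these, Gsta4, Mrgpre and Cyp3a59 lost their calls when ANIT 2 was also left out, and Mvk, Camk2n2 and Rdh11 when ANIT 2 or ANIT 4 was.

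**Figure D5:**
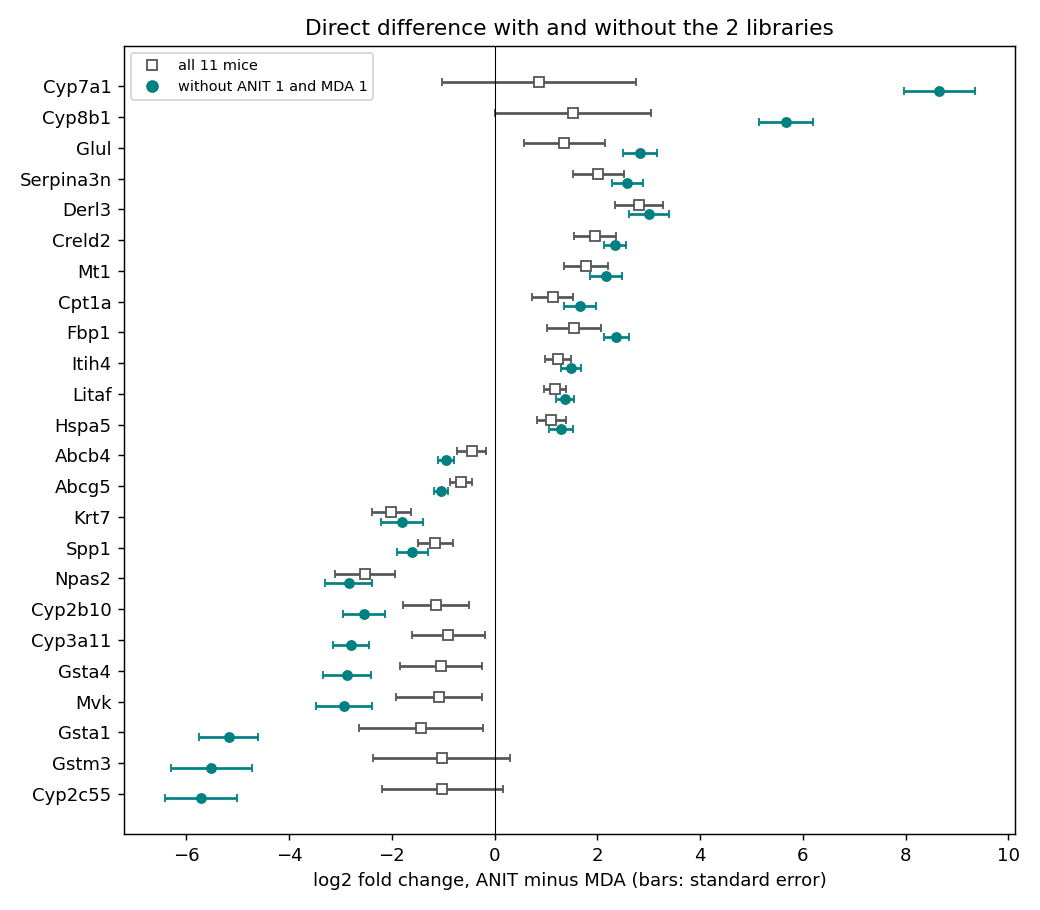
Fitted log2 difference, ANIT minus MDA, of 24 genes over all 11 mice (open squares) and without the libraries labelled ANIT 1 and MDA 1 (filled circles), with bars of 1 standard error. The values lie close together for Derl3 (2.82 and 3.00) and far apart for Gstm3 (-1.03 and -5.52) and Cyp8b1 (1.52 and 5.67).

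Among the other genes that the naming rule took without the 2 libraries, Paqr9, Hamp2 and Rgs16 departed on the MDA side. Paqr9 had 4.28, 40.6, 22.9 and 60.8 CPM in ANIT 1 to 4, 34.9 in MDA 1 and 2.13 to 4.13 in the other 6 MDA mice, against 21.4 to 44.1 in controls. Hamp2, a copy of the iron hormone hepcidin, had 71.4, 358, 122 and 419.9 CPM in ANIT 1 to 4, 289 in MDA 1 and 11.6 to 35.5 in the other 6 MDA mice, against 79.3 to 1337 in controls. Dnase1 and Ankrd2, with 7.24 and 5.93 estimated counts in all over the 6 other MDA mice, rested on few counts on the MDA side, and Serpinb1a, Cyp4a32 and B3galt1 completed the 12 genes higher in ANIT. Rgs16 and B3galt1 were not called once ANIT 2 or ANIT 4 was also left out. On the side of MDA, Akr1b7, an aldo-keto reductase, had 33.1, 0.381, 1.60 and 0.0981 CPM in ANIT 1 to 4, 0.526 in MDA 1 and 12.97 to 27.0 in the other 6 MDA mice, against 0.268 to 1.17 in controls. Cyp2c55, Gstm3, Gsta1, Cyp3a44, Wfdc3, Obp2a, Cacna1b, Chil3 and Tmem144 were others of the 12 genes higher in MDA, and Ly6e, Srd5a1 and Adamts7 were among those added for a small adjusted p. When a further mouse was left out, Obp2a kept its call in 8 of 9 fits (lost without ANIT 4), Cacna1b in 5 (lost without ANIT 2, ANIT 4, MDA 4 or MDA 12) and Wfdc3 in 4 (lost without ANIT 2, ANIT 4, MDA 3, MDA 4 or MDA 7). Tmem144 kept it in 3 of 9 (lost without any of ANIT 2 to 4, MDA 2, MDA 3 or MDA 7), and Chil3 in 2 (lost without any of ANIT 2 to 4, MDA 3, MDA 4, MDA 7 or MDA 12). Gpx2, a glutathione peroxidase, showed the same order, with 13.1, 0.238, 0.860 and 0 CPM in ANIT 1 to 4, 0.351 in MDA 1 and 5.15 to 22.8 in the other 6 MDA mice. Its call was lost without ANIT 2. Pnpla3, a lipid droplet acyltransferase and lipase, departed on the ANIT side with all mice kept (-3.97 against controls, adjusted p 0.019), at 0.884, 0.191, 0.516 and 0 CPM in ANIT 1 to 4 against 0.0585 in MDA 1 and 1.18 to 6.09 in the others. It was called lower in ANIT without the 2 libraries, but not once ANIT 2 or ANIT 4 was also left out. Npas2, a clock transcription factor, was the named gene called lower in ANIT in the fit with controls over all mice (-2.52 ± 0.50, adjusted p 0.044). It had 0.476, 0.286, 0.516 and 0.196 CPM in ANIT 1 to 4 and 0.292 to 3.11 in MDA (median 2.57, MDA 1 lowest). In the fit without the 2 libraries its call was lost when ANIT 2 or ANIT 4 was also left out.

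Of the 61 genes with every MDA mouse above every ANIT mouse, those with the smallest p included Zfp579, Wdr13, Lsm5, Rab4b, Aox3 and Sptan1, with differences that were small. Sptan1, the alpha chain of non-erythroid spectrin, had 34.0, 26.3, 31.6 and 28.3 CPM in ANIT 1 to 4, 38.6 to 56.5 in MDA (median 47.8) and 18.4 to 31.9 in controls. Its log2 difference was -0.66 ± 0.16 (adjusted p 0.40), and -0.75 ± 0.17 without the 2 libraries (adjusted p 0.039), a call lost when any of ANIT 2 to 4, MDA 3, MDA 4, MDA 7 or MDA 12 was also left out. It rose against controls with MDA (0.83, adjusted p 1.6e-05) and differed by 0.17 with ANIT (adjusted p 0.40). Aox3, an aldehyde oxidase, fell against controls in both groups (-2.67 with ANIT and -1.80 with MDA).

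Other lists had few or no members called between the compounds. The p53 targets, the interferon-stimulated genes, the MHC class II genes and the immediate early genes had 0 called with or without the 2 libraries by edgeR. At an unadjusted p under 0.05 over all 11 mice there were 4 of 22 interferon-stimulated genes and 0 of the other 3 lists (9.38% of all genes). Interferon-stimulated genes fell against controls in 21 of 23 cases with ANIT (14.2% of all genes) and 15 of 23 with MDA (16.4%), all mice kept. Their level also moved with the mouse numbers: as the median log2 difference from controls, MDA 1 to 4 stood at -1.50 to -1.33, MDA 8 at -0.87, and MDA 7 and MDA 12 at -0.17 and -0.26, within the controls. ANIT 1 to 4 stood at -1.78 to -1.02, controls 1 to 4 at -0.80 to -0.54 and the other controls at -0.55 to 0.61. The part of the numbering in these calls against controls was not tested. MHC class II genes fell in 7 of 7 cases with ANIT (14.2% of all genes) and 7 of 7 with MDA (16.4%), all mice kept. As the median log2 difference from controls, ANIT mice stood at -1.56 to -1.01 and MDA mice at -1.91 to -0.45, with MDA 1, 7 and 8 within the controls. Controls 1, 2, 3 and 4 stood at -0.37, -0.78, 0.19 and -0.88 and the other controls at -0.12 to 0.46.

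Fatty acid synthesis genes fell against controls in 12 of 17 cases with ANIT (14.2% of all genes) and 12 of 16 with MDA (16.4%), all mice kept. As the median log2 difference from controls, ANIT 2 to 4 stood at -1.65 to -1.48 and MDA 1 at -1.50, against -0.99 to -0.78 in the other 6 MDA mice and -0.87 in ANIT 1. Between the groups 0 of 16 were called over all mice. Without the 2 libraries 3 of 16 were called lower in ANIT (2.12% of all genes), Pnpla3 among them, and 1 higher (2.47%), Me1. Glucocorticoid-responsive genes rose in 8 of 12 cases with ANIT (14.0% of all genes) and 6 of 12 with MDA (17.4%). Between the groups 0 of 12 were called over all mice, and without the 2 libraries 3 of 12 were called higher in ANIT (2.47% of all genes), among them Mt1 and Mt2, which also stand on the metallothionein list.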

How the data were processed

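Bulk mRNA of whole liver was measured in 11 treated and 13 control mice. The authors deposited estimated counts per gene, made with Salmon 1.6.0 and R 4.1.3 on build GRCm39 per the submitters' processing notes. Neither the annotation nor strand use is given in the sources used here. Gene symbols came from GENCODE M21, which matched 51482 of 54307 IDs. Groups and replicate numbers were taken from the labels.

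Estimated counts were rounded and tested with edgeR 4.0.16 in R 4.3.3 (TMM scaling, filterByExpr, quasi-likelihood test, two-sided, Benjamini-Hochberg adjusted p under 0.05 over all genes tested). Only the 2 groups compared entered a fit, without covariates. Each adjusted p in the text is from such a fit unless the fit with controls is named. SE is the absolute log2 difference over the square root of F. CPM was scaled by TMM over the 24 mice. A gene's levels in different mice are compared, not those of different genes.

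Genes were named by a rule: called genes without overlap between the groups and at least 1 CPM in every mouse of the higher group, the 12 largest in each direction, then 5 by adjusted p, members of 52 lists, and up to 10 called in opposite directions against controls. It found none over all 11 mice and was applied without 2 libraries. The 8 genes in each direction with the smallest p among those without overlap were added, as were genes called in the fit with controls. The members, the lists and the tests were chosen with earlier results of these data known. Some named genes are not reported here. Alternatives were DESeq2 1.42.0, limma 3.58.1 on log2(CPM + 1), other scalings, filters and covariates, and leaving out mice. The tests were checked on simulated data.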

Additional observations from a re-analysis of the deposited data

Results flagged for a closer look

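Among 107 genes tested in both groups (214 groups of mice), the sample at one end lay apart from the rest of its group, relative to their spread, on the log2(CPM + 1) scale in 52 cases, by Dixon's gap over the range. Chance alone gives about 1 in 20 such groups, and these genes were chosen with their values known. The library labelled ANIT 1 was that sample in 22 cases and the library labelled MDA 1 in 28. Many of these genes were named by a rule applied without these 2 libraries, which takes called genes whose other mice do not overlap. That choice favours genes in which these 2 libraries stand apart, so the counts are no separate evidence about them.

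In the library labelled ANIT 1, the genes set apart above ANIT 2 to 4 were Abcb4 (166 CPM), Abcg5 (53.1 CPM), Camk2n2 (2.92 CPM), Cyp2c55 (12.7 CPM), Cyp3a11 (6734 CPM), Cyp3a44 (1.50 CPM), Cyp3a59 (82.6 CPM), Gstm2 (356 CPM), Ly6e (621 CPM), Slco1a1 (13.5 CPM), Tmem144 (10.3 CPM), Anxa2 (49.7 CPM) and Gstm1 (7136 CPM). Those set apart below ANIT 2 to 4 were Dnajc12 (8.09 CPM), Fbp1 (275 CPM), Glul (36.1 CPM), Serpina10 (97.7 CPM), Serpina3n (372 CPM), St3gal3 (37.4 CPM), Ldha (494 CPM), Nos1ap (11.1 CPM) and Me1 (50.0 CPM). The gap was small for St3gal3, at 41.4 to 41.5 CPM in ANIT 2 to 4. Detoxification genes of the cytochrome P450 and glutathione transferase families were among those above, and genes of gluconeogenesis, acute phase and lactate metabolism among those below. In the library labelled MDA 1, the genes set apart above the other 6 MDA mice were Ankrd2 (0.994 CPM), Cyp4a32 (122 CPM), Cyp7a1 (63.2 CPM), Cyp8b1 (452 CPM), Dnase1 (1.70 CPM), Fbp1 (1156 CPM), Glul (409.5 CPM), Hamp2 (289 CPM), Paqr9 (34.9 CPM), Rgs16 (38.1 CPM), Serpinb1a (8.36 CPM), Stard8 (3.22 CPM), Gjb2 (164 CPM) and Cyp4a31 (74.4 CPM). Those set apart below them were Abcb4 (66.3 CPM), Adamts7 (1.81 CPM), Akr1b7 (0.526 CPM), Gsta1 (6.26 CPM), Gsta4 (26.7 CPM), Gstm2 (56.9 CPM), Gstm3 (33.5 CPM), Ly6e (159 CPM), Mrgpre (0.0585 CPM), Nr0b2 (41.1 CPM), Rdh11 (5.79 CPM), Saa3 (8.13 CPM), Srd5a1 (10.7 CPM) and Tpm1 (16.8 CPM). Bile acid synthesis genes were among those above, and glutathione transferases among those below.

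The remaining 2 cases were in other mice. Hmox1, heme oxygenase, stood at 523 CPM in ANIT 3, against 125 to 137 in the other ANIT mice. Chac1 stood at 15.7 CPM in MDA 7, against 1.82 to 4.91 in the other MDA mice.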

How the results depend on the processing

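Over all 11 mice, 0 genes were called under limma, either other scaling, either other filter, without mitochondrial genes, and with the range of numbers as a covariate. DESeq2 called 78 (45 higher in ANIT, 33 lower, 56 with an absolute log2 difference of at least 1) and the fit with controls 24 (22, 2 and 17). Leaving out 1 mouse gave 0 to 54 calls (0 to 41 higher, 0 to 13 lower, 0 to 48 of that size). Leaving out both libraries numbered 1 gave 627 (338, 289 and 442). With the mice numbered 1 to 4 DESeq2 called 26, limma 2, the other settings 0, and the mice numbered 2 to 4 gave 245. Without the 2 libraries, DESeq2 called 1412 (699, 713 and 799), the fit with controls 1409 (767, 642 and 725), library totals 324 (124 higher, 274 of that size), no filter 406 (162 lower), the range of numbers as a covariate 321 (148, 173 and 286) and the mice numbered 2 to 4 alone 245 (110, 135 and 237). Leaving out a further mouse gave 132 to 874 (86 to 504, 46 to 370 and 127 to 507). DESeq2 placed 51 genes as departing in 1 group alone over all mice and 959 without the 2 libraries, against 0 and 425. The cause of these differences was not tested.

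A replicate block gave 0 calls over all mice and 12 without the 2 libraries (3 higher, 9 lower, 12 of that size). Deviations of same-numbered mice from their group means correlated at -0.359, -0.0209, -0.00870 and -0.125, and no ANIT mouse correlated best with its own number. The group means include the 2 libraries, and so few correlations cannot tell whether mice of the same number shared a day or batch.

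Of the single genes named, over all mice and all alternatives 2262 values kept direction and side of the threshold, 170 passed it and 9 turned sign. Without the 2 libraries 1770 kept both, 331 lost the call, 16 gained it and 5 turned. The turned log2 differences were Chil3 at 0.0050 with the mice numbered 1 to 4 and Cyp7a1 without ANIT 4. Leaving out 1 mouse gave Cyp7a1 -0.28 to 1.29, but it was not tested without MDA 1, where too few mice passed the filter on low counts. Krt19 turned with the range covariate (0.013) and the numbers 2 to 4 (0.020), both without the 2 libraries. Leaving out 1 mouse gave Krt19 -0.50 to 0.13 over all mice and -0.94 to 0.13 without the 2 libraries. Nr0b2 turned to -0.14 under limma, -0.065 with library totals and -0.085 without both libraries. Leaving out 1 mouse gave it -0.23 to 0.44, and -0.60 to 0.41 without the 2 libraries. Depth limits the genes near or under 1 CPM, such as Krt7, Ankrd2 and Dnase1.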
